A study of Rattus norvegicus with 38 samples.

Results

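The liver response to lipopolysaccharide (LPS) was described in rats that had received 2 extracts, named EF and PF in the labels, by comparing the 4 libraries of rats given LPS, EF and PF with the 5 libraries of rats given EF and PF alone. The libraries were chosen by their labels only, and they are 9 of the 38 in the series. All were made from livers of Sprague-Dawley rats taken on day 28. All 9 rats received EF at 2.5 g/kg and PF at 2.5 g/kg into the stomach, so the rats without LPS are not untreated animals. LPS was given by intraperitoneal injection. The sources used here state neither its dose nor how long before collection it was given. What EF, PF and RD, another substance given by gavage, contain is not stated either. The other 29 libraries form 3 more such arms, without extract (10 libraries), with EF (10) and with EF and RD (9), and were used here to fit the spread and to compare the LPS responses. Samples are described as biological replicates in the design text and share 1 batch label. Although the labels give hepatocyte as cell type, the source they give is liver. Markers of hepatocytes were present, with 124885, 97838, 115971, 109226 and 112770.0 CPM in the EF+PF libraries and 82916, 87442, 80674 and 79829 CPM after LPS for albumin, Alb, and so were markers of macrophages, endothelium, stellate cells and lymphocytes, so the libraries are described here as whole liver.

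LPS is a component of the outer membrane of gram-negative bacteria. In blood it is bound by LPS-binding protein and passed by CD14 to the receptor TLR4 with its partner MD-2, which activates the transcription factor NF-kB and the release of cytokines such as TNF, IL-1 and IL-6. Hepatocytes respond to these cytokines by secreting acute-phase proteins, while their output of albumin, cytochrome P450 enzymes and other metabolic enzymes falls. In RNA from whole tissue, a change in the number of cells of one type and a change in the RNA of a gene per cell cannot be told apart.

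The libraries held 22287849 to 25422925 counted read pairs with EF+PF and 23371592 to 35835012 after LPS. Between 3.33% and 4.36% of them fell on mitochondrially encoded genes, and 24.0% to 26.6% on the 10 genes with the most reads in a library. The first principal component of log2 CPM, counts scaled to a common library size, held 61.9% of the variance over the 9 libraries, and it placed the 4 LPS libraries at 49.1 to 56.3 and the 5 others at -51.2 to -35.7. No library stood apart from its group on that component, and no 2 libraries held identical counts. Summed levels of 17 skeletal muscle markers, in TPM, the authors' length-scaled unit, were 3.35 to 4.74 without and 4.05 to 8.59 with LPS, and those of 16 exocrine pancreas markers 22.6 to 34.3 and 16.2 to 28.9. In these lists 0 of 7 and 0 of 10 tested members passed the test.

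LPS changed the level of many of the genes measured in EF+PF livers. Of 14786 genes tested, 5402 (36.5%) passed the threshold of an adjusted p under 0.05 in edgeR's quasi-likelihood test, 2839 higher (19.2%) and 2563 lower (17.3%). A change of at least 2-fold was found for 1690 of the higher and 350 of the lower genes. All 4 LPS libraries lay above all 5 others for 2883 genes (19.5%) and below them for 2598 (17.6%). The median log2 fold change over all genes was -0.02. With library sizes scaled by total counts the median was 0.14, and 4022 of 5125 called genes (78.5%) were higher, against 52.6% with the scaling used here, so changes are stated relative to the median gene. The share of a gene list that was called is to be read against these percentages. Per-library values are in CPM and in the order of replicates 1, 2, 3, 5 and 6 for EF+PF and 1, 3, 4 and 6 after LPS, changes are log2 fold changes with their standard error (SE), and adjusted p-values are those of the test just named.

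**Figure D1:**
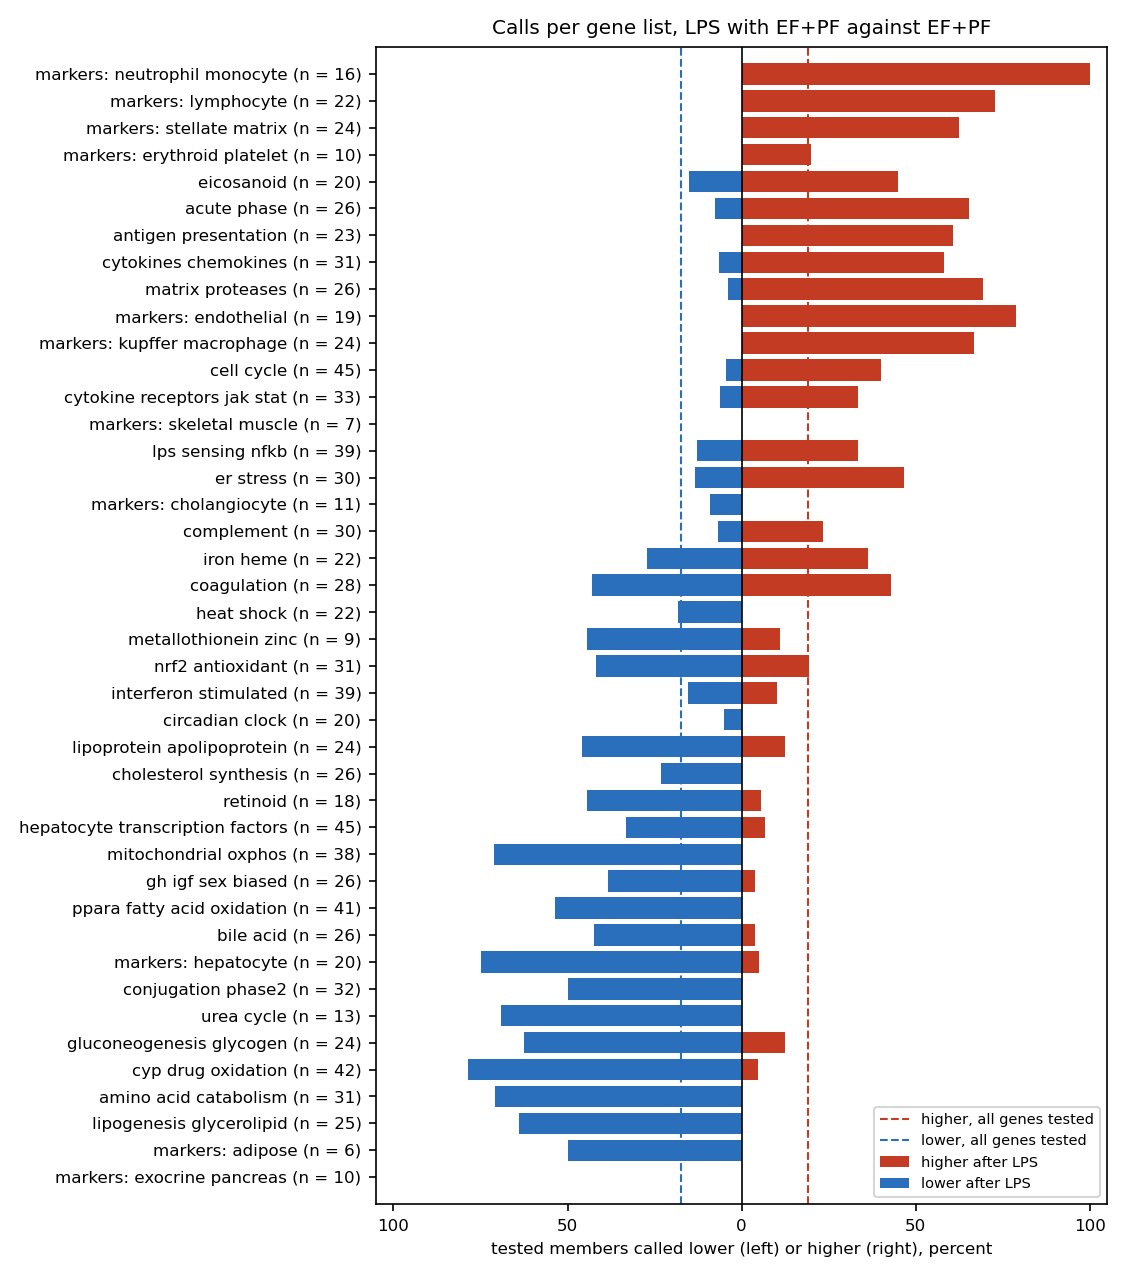
Share of the tested members of each of the 42 gene lists called higher (right, red) or lower (left, blue) after LPS in EF+PF rats, in percent, with lists ordered by their median log2 fold change and dashed lines at 19.2% and 17.3%, the shares over all genes tested. The neutrophil and monocyte markers lie at the top, with 16 of 16 higher, and amino acid catabolism, lipogenesis and cytochrome P450 genes near the bottom, with 0, 0 and 2 higher.

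Receptors and carriers of bacterial products were among the genes of the LPS pathway that rose. Of 39 tested genes of LPS sensing and NF-kB signalling, 13 rose and 5 fell, with a median log2 fold change of 0.23. With total-count scaling 22 rose and 2 fell. The 4 called members with the smallest p were all receptors or carriers on the outside of the cell. Tlr2, a receptor for bacterial lipoproteins, was at 2.27, 2.07, 1.42, 0.990 and 1.27 CPM in the EF+PF libraries and 15.04, 17.9, 16.1 and 14.4 CPM after LPS. Every LPS library was above every other, at a change of 3.30 ± 0.35 (SE), adjusted p = 2.53e-07. Its partners Tlr1 and Tlr6 rose by 2.99 ± 0.44 and 1.47 ± 0.27. Lbp, the LPS-binding protein made by hepatocytes (chr3:154786232-154812910 in rn6), was at 138, 133, 86.6, 110.4 and 175 CPM in the EF+PF libraries and 2971, 2735, 2685 and 2433 CPM after LPS. The groups were far apart, at a change of 4.40 ± 0.55 (SE), adjusted p = 1.25e-06. The LPS receptor Tlr4 rose by 1.10 ± 0.29 (adjusted p = 0.00393), its partner Ly96, which encodes MD-2, by 1.06 ± 0.30 (adjusted p = 0.00606), and Cd14 by 0.65 ± 0.25 (adjusted p = 0.0405). These 3 were singled out after their values were seen, and the call for Cd14 was lost without any 1 of EF+PF replicates 2, 3, 5 and 6 or LPS replicates 1, 3, 4 and 6 (adjusted p up to 0.104), and also without a filter on low counts. The adaptor Myd88 (0.10 ± 0.16, adjusted p = 0.678), the inhibitor of NF-kB Nfkbia (-0.41 ± 0.24, adjusted p = 0.173) and the deubiquitinase Tnfaip3 (0.40 ± 0.25, adjusted p = 0.202) did not pass.

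Acute-phase protein genes mostly rose. Of 26 tested members 17 rose and 2 fell, with a median of 1.12. The summed level of the list was 76334 to 86762 TPM in EF+PF livers and 151543 to 167911 TPM after LPS, so that the ranges did not meet. A2m, the protease inhibitor alpha-2-macroglobulin (chr4:154309426-154359138), was at 2.15, 1.36, 1.04, 2.02 and 2.87 CPM in the EF+PF libraries and 167, 86.7, 141 and 86.7 CPM after LPS. The level was low without LPS, and the groups were far apart, at a change of 5.99 ± 0.92 (SE), adjusted p = 1.29e-05. Serpina3n, a serine protease inhibitor, was already abundant, at 3502, 3493, 3959.6, 3152 and 4104 CPM in the EF+PF libraries and 12110.0, 13584, 14048 and 13399 CPM after LPS. The groups did not overlap, and the change was 1.87 ± 0.31 (SE), adjusted p = 2.52e-05. Steap4, a metalloreductase, rose by 1.77 ± 0.29 (adjusted p = 2.89e-05). Orm1, which encodes alpha-1-acid glycoprotein, and Fgb, the fibrinogen beta chain, were singled out after their values were seen. Orm1 was at 479, 244, 347, 316 and 486 CPM in the EF+PF libraries and 1718, 1897, 2865 and 1580.3 CPM after LPS, and Fgb at 7159, 6101, 7009.7, 6612 and 8387 CPM in the EF+PF libraries and 17932, 16113, 17010.2 and 15915 CPM after LPS. For both, every LPS library was above every EF+PF library. Orm1 rose by 2.43 ± 0.47 (SE), adjusted p = 0.000148, and Fgb by 1.25 ± 0.25 (SE), adjusted p = 0.000293. The members with an uncalled change included C-reactive protein, Crp, at 6639, 6553, 7908, 7580.0 and 6454 CPM in the EF+PF libraries and 5875, 6554, 6825 and 6819 CPM after LPS. Its groups overlapped, at -0.11 ± 0.13 (adjusted p = 0.549). Itih3 (-0.07), C3 (0.27) and Il1rn, the IL-1 receptor antagonist (0.20), did not pass either.

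Hamp, which encodes the iron hormone hepcidin and was singled out after its values were seen, fell in the fit but not evenly. It was at 188, 243, 343, 93.9 and 274 CPM in the EF+PF libraries and 8.36, 89.6, 170.3 and 17.7 CPM after LPS. LPS replicates 1, 3 and 6 were below all EF+PF libraries, replicate 3 only just, while replicate 4 lay within the EF+PF range. The change was -1.67 ± 0.63 (SE), adjusted p = 0.0372, and it was -2.57 without LPS replicate 4. The call was lost without any 1 of EF+PF replicates 2, 3 and 6 or LPS replicates 1, 3 and 6 (adjusted p up to 0.119), and also with total-count scaling, without a filter on low counts and with only the groups compared in the fit. Apcs, serum amyloid P, was the other member that fell, by -0.35 ± 0.11 (adjusted p = 0.0154), and was singled out for that reason. Its call was lost without LPS replicate 1 (adjusted p up to 0.0578), and also with total-count scaling. With total-count scaling 19 acute-phase members rose and 0 fell.

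The promoters of acute-phase genes are shown because 17 of the 26 tested genes rose. The window is the 250 bases before the gene's start, from RefSeq's sequence of build GRCr8, and a promoter was matched for 23 of the 28 listed genes. Letters were searched on both strands. TTCNNNGAA, the letters of a STAT site, were found in 7 of the 23 promoters (30.4%), against 7.67% of all 33469 promoters in the table. CTGGGAA, the letters of the type 2 acute-phase element, were found in 9 of 23 (39.1%), against 9.56% of all promoters. Over the 2061 called-higher genes with a promoter the shares were 5.43% and 8.64%. Of the 4 promoters with both, 2 have them overlapping, since TTCCCAGAA holds both. Capitals mark the matches in the 3 called genes that have both, and in Serpina3n they overlap. Matches were not confined to genes that rose. Hamp and Apcs, which fell, and C3 and Itih4, which were not called, also held a match. Orm1, Hpx and Cp, which rose, held none. A match is a description of the letters and not of binding.
Serpina3n, chr6:129088142-129088391, plus strand: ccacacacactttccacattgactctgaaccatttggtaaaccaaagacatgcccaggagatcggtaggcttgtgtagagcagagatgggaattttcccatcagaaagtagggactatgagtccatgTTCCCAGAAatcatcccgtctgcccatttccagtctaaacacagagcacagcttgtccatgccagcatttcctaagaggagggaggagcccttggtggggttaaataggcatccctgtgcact
Steap4, chr4:27054770-27055019, minus strand: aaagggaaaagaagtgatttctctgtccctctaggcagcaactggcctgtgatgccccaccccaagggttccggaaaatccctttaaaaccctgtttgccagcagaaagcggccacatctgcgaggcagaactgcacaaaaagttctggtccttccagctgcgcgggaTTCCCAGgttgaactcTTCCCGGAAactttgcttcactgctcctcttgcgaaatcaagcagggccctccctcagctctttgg
Fgb, chr2:170700876-170701125, minus strand: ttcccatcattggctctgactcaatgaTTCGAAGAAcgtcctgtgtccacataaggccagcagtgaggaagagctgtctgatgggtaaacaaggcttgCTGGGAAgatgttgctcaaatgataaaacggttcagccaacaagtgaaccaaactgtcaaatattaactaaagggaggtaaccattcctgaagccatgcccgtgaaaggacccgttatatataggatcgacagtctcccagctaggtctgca

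**Figure D2:**
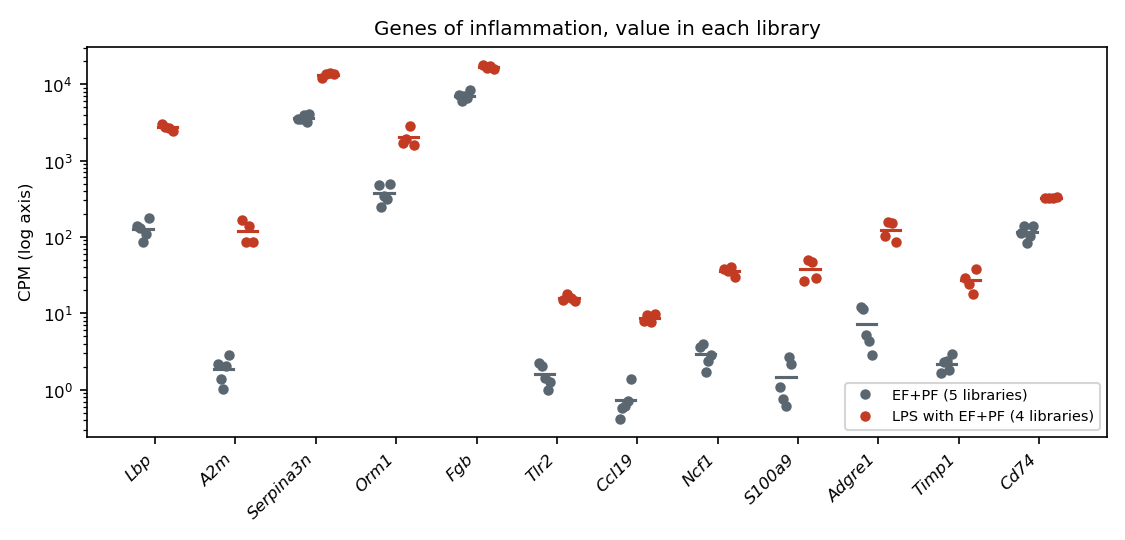
CPM on a log axis of 12 genes of inflammation in each of the 5 EF+PF libraries (grey) and the 4 libraries after LPS (red), with the group mean as a line. For each of the 12 genes all 4 LPS libraries lie above all 5 others.

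Chemokines and cytokines with a measurable level mostly rose. Of 31 tested members 18 rose and 2 fell, with a median of 1.04, and 8 of the 39 listed, Il6, Tnf, Ifng, Csf2, Csf3, Cxcl3, Ccl20 and Sele, were under the filter on low counts. Ccl19, a chemokine for T cells and dendritic cells, was at 0.413, 0.572, 0.613, 0.720 and 1.36 CPM in the EF+PF libraries and 7.92, 9.56, 7.74 and 9.81 CPM after LPS. Its LPS libraries were all above the EF+PF libraries, at a change of 3.57 ± 0.42 (SE), adjusted p = 7.13e-07. Il1b, the cytokine interleukin-1 beta, was at 4.59, 3.83, 2.22, 3.64 and 3.11 CPM in the EF+PF libraries and 18.3, 24.5, 21.6 and 18.3 CPM after LPS. Its LPS libraries were all above the others, at a change of 2.57 ± 0.31 (SE), adjusted p = 1.15e-06. Cxcl16 rose by 2.52 ± 0.30 and Cxcl9, a ligand of the chemokine receptor CXCR3, by 4.91 ± 0.64. The members that fell were Cxcl11 (-0.66 ± 0.16, adjusted p = 0.00179) and Ccl24 (-1.18 ± 0.32, adjusted p = 0.00472). Several chemokines of acute inflammation did not pass, among them Cxcl1 (0.01 ± 1.20), Ccl5 (0.14 ± 0.28), Cxcl2 (2.48 ± 2.27) and Cxcl10 (-0.74 ± 0.35). Without LPS replicate 1 the value of Cxcl1 was -0.99, and that of Cxcl2 was 3.96 without EF+PF replicate 1 and 1.34 without LPS replicate 6. Of 33 tested cytokine receptors and JAK-STAT genes 11 rose and 2 fell, with a median of 0.32. Il1r2, the decoy receptor of interleukin-1, was at 0.0826, 0.132, 0.0472, 0.0900 and 0.188 CPM in the EF+PF libraries and 2.65, 2.72, 4.24 and 2.06 CPM after LPS. It was near 0 without LPS and rose by 4.70 ± 0.72 (SE), adjusted p = 1.29e-05. Jak3, a kinase of cytokine receptors of lymphoid and myeloid cells, rose by 1.73 ± 0.26, the interleukin-10 receptor Il10ra by 1.96 ± 0.34, and the phosphatase gene Ptpn6 by 0.77 ± 0.12. Stat3, the transcription factor downstream of interleukin-6, was at 0.32 ± 0.33 (adjusted p = 0.478), and its feedback inhibitor Socs3 at 1.14 ± 0.64 (adjusted p = 0.167).

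Interferon-stimulated genes did not rise as a group, while genes of antigen presentation by MHC class II did. Of 39 tested interferon-stimulated genes 4 rose and 6 fell, against 19.2% and 17.3% of all genes, with a median of -0.26. With total-count scaling 6 rose and 3 fell. Gbp2, a GTPase of cell defence, was at 14.1, 13.4, 7.93, 4.68 and 5.60 CPM in the EF+PF libraries and 47.1, 62.8, 74.1 and 57.1 CPM after LPS. The groups did not overlap, at a change of 2.72 ± 0.49 (SE), adjusted p = 7.3e-05. Oasl2 rose by 1.55 ± 0.35, the transcription factor gene Irf8 by 0.89 ± 0.21, and Ifi27 fell, at -1.11 ± 0.26. Isg15 (0.28), Mx1 (-0.55) and Ifit1 (-0.38) did not pass. Of 23 tested antigen presentation genes 14 rose and 0 fell, with a median of 1.10. Cd74, the invariant chain of MHC class II, was at 111, 140.2, 82.3, 102 and 137 CPM in the EF+PF libraries and 322, 328, 323 and 334 CPM after LPS. The 4 LPS libraries were closely alike and above all others, at a change of 1.51 ± 0.24 (SE), adjusted p = 1.54e-05. The costimulatory receptor gene Cd86 rose by 2.01 ± 0.31, the immunoproteasome subunit gene Psmb10 by 1.10 ± 0.19, and RT1-M3-1, a non-classical class I gene, by 1.32 ± 0.19. The classical class I gene RT1-A1 (-0.20), its light chain B2m (-0.19) and the peptide transporter gene Tap1 (-0.04) did not pass. Rat MHC genes are near-identical copies, so reads between them are uncertain.

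Markers of blood-borne and resident non-parenchymal cells rose. All 16 tested neutrophil and monocyte markers rose, with a median of 3.22, and their summed level was 63.7 to 113 TPM in EF+PF livers and 544 to 914 TPM after LPS. The other 8 of 24 listed were under the filter or not in the table, among them the granule genes Mpo, Elane, Ltf and Camp. Ncf1, a subunit of the phagocyte oxidase, was at 3.64, 4.01, 1.70, 2.38 and 2.87 CPM in the EF+PF libraries and 37.9, 35.4, 41.0 and 30.3 CPM after LPS. All LPS libraries were above all EF+PF libraries, at a change of 3.62 ± 0.43 (SE), adjusted p = 7.13e-07. The subunit Ncf4 rose by 2.53 ± 0.31. S100a9, a subunit of calprotectin, was at 1.07, 0.748, 0.613, 2.70 and 2.16 CPM in the EF+PF libraries and 26.3, 49.5, 47.3 and 29.2 CPM after LPS. The ranges of the groups were separate, at a change of 4.71 ± 0.69 (SE), adjusted p = 7.57e-06.

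Of 24 tested Kupffer cell and macrophage markers 16 rose and 0 fell, with a median of 0.90 and a summed level of 548 to 979 TPM without and 1289 to 1556 TPM with LPS. Siglec10, a sialic acid-binding inhibitory receptor (chr1:98512663-98521736), was at 0.289, 0.264, 0.0944, 0.225 and 0.188 CPM in the EF+PF libraries and 12.9, 16.2, 13.8 and 10.6 CPM after LPS. It had the largest change of the list, 5.93 ± 0.54 (SE), adjusted p = 1.17e-08. Adgre1, which encodes the macrophage antigen F4/80, was at 12.2, 11.3, 5.29, 4.36 and 2.87 CPM in the EF+PF libraries and 102, 157, 154 and 85.1 CPM after LPS. LPS and EF+PF libraries did not overlap, at a change of 4.11 ± 0.54 (SE), adjusted p = 2.15e-06. The myeloid transcription factor gene Spi1 rose by 1.69 ± 0.24 and the scavenger receptor gene Msr1 by 1.90 ± 0.31. Clec4f, a lectin of resident Kupffer cells, was at -0.16 ± 0.29 (adjusted p = 0.709), and the complement gene C1qa at 0.16 ± 0.19 (adjusted p = 0.55). Of 22 tested lymphocyte markers 16 rose and 0 fell, with a median of 1.43 and a summed level of 28.0 to 44.7 TPM and 74.4 to 108 TPM. Cd8b, a T cell coreceptor, was at 0.289, 0.0881, 0.0472, 0.135 and 0.0941 CPM in the EF+PF libraries and 0.925, 1.07, 1.09 and 1.24 CPM after LPS. The level was low in both groups, without overlap, at a change of 2.98 ± 0.42 (SE), adjusted p = 4.31e-06. The T cell gene Cd3e rose by 1.78 ± 0.28, Cd27 by 2.21 ± 0.31, and Ptprc, the leukocyte common antigen, by 2.04 ± 0.32. The 6 members that did not pass were genes of natural killer and cytotoxic cells: Nkg7 (0.53), Gzma (-0.42), Prf1 (-0.34), Klrd1 (-0.56), Ncr1 (-0.38) and Klrb1a (-0.24).

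Endothelial and matrix genes rose too. Of 19 tested endothelial markers 15 rose and 0 fell, with a median of 0.95 and a summed level of 241 to 366 TPM without and 567 to 689 TPM with LPS. Pecam1, the adhesion molecule CD31, was at 17.8, 18.1, 17.9, 15.6 and 13.1 CPM in the EF+PF libraries and 44.2, 40.8, 45.5 and 37.1 CPM after LPS. No overlap was found, at a change of 1.34 ± 0.20 (SE), adjusted p = 8.89e-06. Endoglin, Eng, rose by 0.88 ± 0.14, Esam by 1.01 ± 0.17 and Oit3, a gene of sinusoidal endothelium, by 1.21 ± 0.21. The sinusoidal genes Gpr182, Fcgr2b and Stab1, named after their values were seen, rose by 0.69 ± 0.13, 0.94 ± 0.24 and 0.79 ± 0.30, and the call for Stab1 was lost without any 1 of EF+PF replicates 1, 2, 5 and 6 or LPS replicates 1, 3, 4 and 6 (adjusted p up to 0.0979), and also without a filter on low counts. Stab2 (0.40), Lyve1 (0.42) and Clec4g (-0.60), also of sinusoidal endothelium, did not pass, nor did Kdr, a receptor of vascular endothelial growth factor (-0.06). Of 24 tested stellate cell and matrix genes 15 rose and 0 fell, with a median of 1.38 and a summed level of 232 to 278 TPM and 686 to 971 TPM. The basement membrane collagens Col4a2 and Col4a1 rose by 2.13 ± 0.26 and 2.49 ± 0.32, and the growth factor receptor gene Pdgfrb by 1.67 ± 0.23. Timp1, an inhibitor of matrix metalloproteases, was at 1.65, 2.29, 2.36, 1.80 and 2.92 CPM in the EF+PF libraries and 29.5, 24.5, 18.0 and 38.1 CPM after LPS. Every LPS library was above the others, at a change of 3.64 ± 0.46 (SE), adjusted p = 1.25e-06. Of 26 tested matrix proteases and their inhibitors 18 rose and 1 fell, with a median of 0.96. The shedding protease gene Adam17 rose by 0.78 ± 0.12 and Adamts9 by 1.21 ± 0.19.

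Of 10 tested erythroid and platelet markers 2 rose, Hba-a1 and Ahsp, a share near the 19.2% of all genes. Hba-a1, an alpha globin gene, was at 1.61, 1.01, 5.33, 2.70 and 1.79 CPM in the EF+PF libraries and 74.5, 29.9, 11.6 and 34.4 CPM after LPS. The LPS libraries were above the others but spread over several-fold, at a change of 3.92 ± 1.13 (SE), adjusted p = 0.00686. The summed level of the list was 1863 to 6285 TPM in EF+PF livers and 2326 to 11456 TPM after LPS, so the ranges overlapped. What blood in the tissue adds to the levels of leukocyte genes was not tested. The change of Ahsp, the chaperone of alpha globin, was 2.24 ± 0.80 (adjusted p = 0.0278) and 1.66 without LPS replicate 1, and this call was lost without any 1 of EF+PF replicates 2, 3 and 6 or LPS replicates 1 and 6 (adjusted p up to 0.136). Of 11 tested cholangiocyte markers 0 rose and 1 fell, Epcam at -0.56 ± 0.20 (adjusted p = 0.0246), a call lost without any 1 of EF+PF replicate 3 or LPS replicates 3 and 6 (adjusted p up to 0.073), and also with total-count scaling.

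Hepatocyte genes of metabolism were mostly lower after LPS. Of 20 tested hepatocyte markers 15 fell and 1 rose, with a median of -0.62, and the summed level was 208585 to 229911 TPM without and 190432 to 201280.0 TPM with LPS. The member that rose was Fgb, an acute-phase gene. With total-count scaling 10 of these markers fell and 2 rose. Retinol-binding protein, Rbp4, fell, at -0.90 ± 0.15. Albumin, at the levels given at the start, did not overlap between groups, and was singled out after its values were seen. Its change was -0.44 ± 0.16 (SE), adjusted p = 0.028, a call lost without any 1 of EF+PF replicate 1 or LPS replicates 4 and 6 (adjusted p up to 0.0571), and also with total-count scaling and without a filter on low counts. Serpina1 (0.02) and Apoa1 (0.09) did not pass.

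Cytochrome P450 genes and other genes of drug oxidation were lower in most cases. Of 42 tested 33 fell and 2 rose, with a median of -0.93, and with total-count scaling 26 fell. Cyp2c11, the main male-specific P450 of rat liver (chr1:257676172-258004428), was at 1757, 1487, 1380.1, 1147 and 934 CPM in the EF+PF libraries and 294, 120.4, 132 and 120.0 CPM after LPS. LPS replicate 1 kept more than the other LPS libraries, but all were below every EF+PF library, at a change of -3.01 ± 0.42 (SE), adjusted p = 4.31e-06. Cyp39a1, an oxysterol hydroxylase, fell, at -0.998 ± 0.15, the fatty acid hydroxylase gene Cyp4f1 at -0.91 ± 0.14, and cytochrome b5, Cyb5a, at -0.99 ± 0.16. The receptors that switch on drug-metabolism genes, Nr1i2 and Nr1i3, were singled out after their values were seen and fell too, at -0.95 ± 0.23 and -1.41 ± 0.43. Of 26 tested growth hormone-dependent and sex-biased genes 10 fell and 1 rose, with a median of -0.42. The growth hormone receptor gene Ghr fell, at -0.79 ± 0.11 (adjusted p = 5.41e-06), and Mup5, a urinary protein gene, at -2.69 ± 0.45. Cyp3a2, a male-predominant steroid hydroxylase, was at 4351, 4567, 2652, 2135 and 2669.7 CPM in the EF+PF libraries and 873, 455, 774 and 900.2 CPM after LPS. The ranges did not meet, at a change of -2.13 ± 0.37 (SE), adjusted p = 5.37e-05. The gene that rose was Cyp2c12, the female-specific P450, at 22.3, 8.06, 2.12, 6.70 and 4.42 CPM in the EF+PF libraries and 59.2, 29.2, 37.4 and 115 CPM after LPS. It was singled out after its values were seen, and changed by 2.78 ± 0.80 (SE), adjusted p = 0.00692, and by 3.49 without EF+PF replicate 1. Members of the Cyp2c, Cyp3a and Mup families share sequence, so reads of close copies are uncertain.

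Enzymes that break down amino acids and dispose of nitrogen fell with none rising. Of 31 tested amino acid catabolism genes 22 fell and 0 rose, with a median of -0.94. Gpt, alanine aminotransferase, was at 66.6, 52.6, 80.6, 74.2 and 44.0 CPM in the EF+PF libraries and 9.17, 11.4, 18.9 and 10.6 CPM after LPS. No library of one group reached the range of the other, at a change of -2.34 ± 0.38 (SE), adjusted p = 2.4e-05. Ahcy, which clears S-adenosylhomocysteine, fell, at -1.45 ± 0.24, glycine N-acyltransferase, Glyat, at -1.20 ± 0.20, and Ivd, of leucine breakdown, at -0.83 ± 0.14. Tryptophan dioxygenase, Tdo2 (-0.52), and serine dehydratase, Sds (-1.39, or -2.30 without LPS replicate 4), did not pass. Of 13 tested urea cycle and ammonia genes 9 fell and 0 rose, with a median of -0.71, and with total-count scaling 6 fell. Cps1, the first enzyme of the urea cycle, was at 5505, 5635, 5701, 5276 and 4318 CPM in the EF+PF libraries and 1673, 2039, 2523 and 1769 CPM after LPS. Every LPS library was below every other, at a change of -1.40 ± 0.21 (SE), adjusted p = 1.15e-05. Glutamate dehydrogenase, Glud1, fell, at -1.03 ± 0.15, Otc at -0.71 ± 0.14 and Ass1 at -1.21 ± 0.27. Asl (-0.39) and glutamine synthetase, Glul (0.21), did not pass.

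Genes of glucose and glycogen metabolism mostly fell. Of 24 tested 15 fell and 3 rose, with a median of -0.88. Pfkfb1, the enzyme that makes and breaks down a regulator of glycolysis, was at 76.0, 91.8, 103, 82.1 and 61.0 CPM in the EF+PF libraries and 14.6, 20.8, 21.6 and 8.11 CPM after LPS. There was no overlap between the groups, at a change of -2.34 ± 0.35 (SE), adjusted p = 8.05e-06. The glycogen branching enzyme gene Gbe1 fell, at -1.59 ± 0.27, and ketohexokinase, Khk, at -0.95 ± 0.17. G6pc3, the ubiquitous glucose 6-phosphatase, rose by 0.77 ± 0.14. The liver glucose 6-phosphatase G6pc (-1.06 ± 0.59, adjusted p = 0.161) and fructose bisphosphatase Fbp1 (-0.20 ± 0.16, adjusted p = 0.354) did not pass.

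Fatty acid oxidation and fatty acid synthesis genes were lower where they passed the test, with 0 rising in either list. Of 41 tested fatty acid oxidation genes 22 fell, with a median of -0.45, and with total-count scaling 15 fell. Acadm, the medium-chain acyl-CoA dehydrogenase, was at 598, 555, 609.8, 536 and 623 CPM in the EF+PF libraries and 286, 313, 294 and 275 CPM after LPS. The values were close within each group and did not overlap, at a change of -0.99996 ± 0.14 (SE), adjusted p = 4.79e-06. The peroxisomal enzyme genes Acox2 and Ehhadh fell, at -0.76 ± 0.13 and -0.90 ± 0.17, and Etfa, an electron carrier, at -0.59 ± 0.12. The carnitine transferase Cpt1a (-0.44, adjusted p = 0.218) and the regulator Ppara (-0.42, adjusted p = 0.243) did not pass. Of 25 tested lipogenesis and glycerolipid genes 16 fell, with a median of -1.01. Fads2, the fatty acid desaturase of the polyunsaturated pathway, was at 675, 477, 737, 356 and 555 CPM in the EF+PF libraries and 120.1, 203, 186 and 110.2 CPM after LPS. All LPS libraries were below the others, at a change of -1.85 ± 0.31 (SE), adjusted p = 2.65e-05. Lpin1 fell, at -2.31 ± 0.41, the elongase gene Elovl5 at -1.01 ± 0.21 and malic enzyme, Me1, at -1.08 ± 0.23. Scd, the stearoyl-CoA desaturase, was singled out after its values were seen, at 373, 308, 1737, 869 and 393 CPM in the EF+PF libraries and 68.0, 275, 29.5 and 37.5 CPM after LPS. Its spread was wide in both groups, and the change was -2.84 ± 0.72 (SE), adjusted p = 0.00259, and -4.04 without LPS replicate 3, the highest after LPS, and -2.25 without EF+PF replicate 3. Srebf1, the main lipogenic regulator, was at -0.58 ± 0.35 (adjusted p = 0.193). Of 38 tested nuclear genes of the respiratory chain 27 fell and 0 rose, with a median of -0.41, all by less than 2-fold, and with total-count scaling 17 fell. The complex II subunit Sdha was at 318, 314, 350.3, 295 and 320.2 CPM in the EF+PF libraries and 211, 226, 207 and 192 CPM after LPS. The ranges of the groups were separate, at a change of -0.61 ± 0.09 (SE), adjusted p = 5.04e-06. Uqcrc2 fell, at -0.47 ± 0.08, Atp5a1 at -0.48 ± 0.09 and Sdhd at -0.49 ± 0.10.

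Among bile acid and conjugation genes more fell than rose. Of 26 tested bile acid genes 11 fell and 1 rose, with a median of -0.60, and with total-count scaling 7 fell and 3 rose. Baat, which joins bile acids to amino acids, was at 1495, 1774, 1738, 1585 and 1500.0 CPM in the EF+PF libraries and 774, 793, 776 and 864 CPM after LPS. LPS and EF+PF libraries did not overlap, at a change of -1.01 ± 0.15 (SE), adjusted p = 6.77e-06. Slc10a1, the uptake transporter of bile acids, was at 823, 713, 736, 700.0 and 734 CPM in the EF+PF libraries and 364, 399, 422 and 397 CPM after LPS. The change was -0.91 ± 0.18 (SE), adjusted p = 0.000228, again without overlap. Cyp27a1, of the alternative synthesis route, fell, at -0.97 ± 0.22. The rate-limiting enzyme Cyp7a1 was at -0.93 ± 0.56 (adjusted p = 0.191). The gene that rose was the efflux pump Abcc3, at 1.15 ± 0.30. Of 32 tested conjugation genes 16 fell and 0 rose, with a median of -0.70. The glucuronosyl transferase genes Ugt2b37 and Ugt2b35 fell, at -0.93 ± 0.14 and -0.74 ± 0.12, and the glutathione transferase genes Gstm2 and Gstm7 at -1.04 ± 0.18 and -1.29 ± 0.22. Members of these 2 families have near-identical copies and are uncertain.

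**Figure D3:**
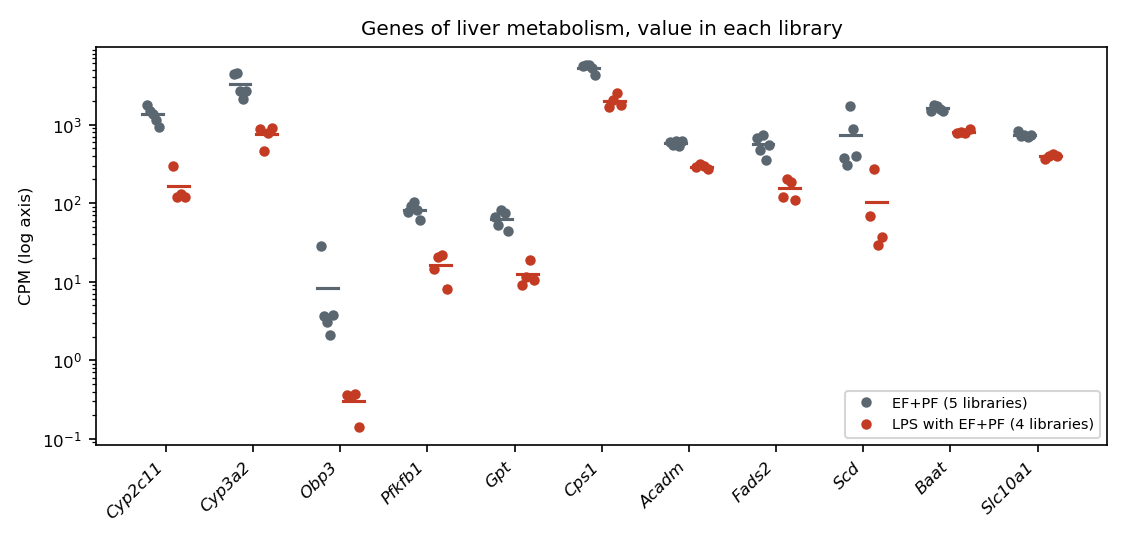
CPM on a log axis of 11 genes of liver metabolism in each of the 5 EF+PF libraries (grey) and the 4 libraries after LPS (red), with the group mean as a line. For each of the 11 genes all 4 LPS libraries lie below all 5 others, with wide spread in Scd and Obp3.

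Liver-enriched transcription factors were lower where they passed the test, with few exceptions. Of 45 tested 15 fell and 3 rose, with a median of -0.41. The nuclear receptor gene Hnf4a fell, at -0.61 ± 0.15 (adjusted p = 0.00185), Cebpb at -0.94 ± 0.21 and Cebpg at -0.47 ± 0.08. The 3 that rose, Gata4 (0.49 ± 0.16), Cebpd (0.99 ± 0.36) and Nr1h3 (0.25 ± 0.10), were named after their values were seen. The call for Gata4 was lost without any 1 of LPS replicates 1 and 6 (adjusted p up to 0.0579), that for Cebpd was lost without any 1 of EF+PF replicates 1, 2, 5 and 6 or LPS replicates 1, 3 and 4 (adjusted p up to 0.0853), and that for Nr1h3 was lost without any 1 of the 9 libraries (adjusted p up to 0.153), and also without a filter on low counts. Of 18 tested retinoid genes 8 fell and 1 rose, with a median of -0.38, and with total-count scaling 7 fell and 4 rose. Chemerin, Rarres2, fell, at -0.55 ± 0.11, and Rdh7, a retinol dehydrogenase, at -1.23 ± 0.24, while Cyp26a1, which clears retinoic acid, rose by 1.30 ± 0.29. Of 24 tested lipoprotein genes 11 fell and 3 rose, with a median of -0.32, and with total-count scaling 8 fell and 5 rose. Hepatic lipase, Lipc, fell, at -0.73 ± 0.14 and Apon at -0.83 ± 0.16, while the sterol exporter gene Abcg1 rose by 2.07 ± 0.27.

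Blood defence and clotting genes moved both ways. Of 30 tested complement genes 7 rose, against 19.2% of all genes, and 2 fell, with a median of 0.15, and with total-count scaling 13 rose. The receptor genes C5ar1 and C3ar1 rose by 2.57 ± 0.36 and 2.61 ± 0.45, and the secreted components C9 and Cfb by 1.22 ± 0.21 and 0.72 ± 0.14. Of 28 tested coagulation genes 12 rose and 12 fell. Their median was -0.09, and 0.08 with total-count scaling. Plaur, the urokinase receptor, rose by 2.30 ± 0.40 and urokinase itself, Plau, by 1.99 ± 0.37, while the anticoagulant genes Pros1 and Serpind1 fell, at -0.73 ± 0.11 and -0.87 ± 0.16. Of 22 tested iron and heme genes 8 rose and 6 fell, with a median of 0.07, and with total-count scaling 0 fell. Hemopexin, Hpx, rose by 1.08 ± 0.23 and Bmp6 by 1.06 ± 0.25. Of 9 tested metallothionein and zinc transport genes 1 rose and 4 fell, and with total-count scaling 1 fell. The zinc importer gene Slc39a10 rose by 1.57 ± 0.23 (adjusted p = 7.68e-06). Mt1 fell, at -1.50 ± 0.52 (adjusted p = 0.0248), a call lost without any 1 of LPS replicates 1 and 6 (adjusted p up to 0.0819), while its close copy Mt2A was at 0.17 ± 0.52 (adjusted p = 0.818). Reads of these 2 copies are uncertain.

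Antioxidant genes fell more often than they rose, and genes of endoplasmic reticulum stress rose more often than they fell. Of 31 tested antioxidant genes 6 rose and 13 fell, with a median of -0.25, and with total-count scaling 8 fell. Sod2, the mitochondrial superoxide dismutase, was at 82.8, 78.1, 81.7, 91.5 and 83.8 CPM in the EF+PF libraries and 554, 531, 531 and 478 CPM after LPS. The values were close within each group and far apart between them, at a change of 2.65 ± 0.33 (SE), adjusted p = 1.19e-06. Catalase, Cat, fell, at -1.26 ± 0.17, peroxiredoxin Prdx1 at -0.44 ± 0.09, and the pentose phosphate enzyme Tkt at -0.75 ± 0.12. Of 30 tested endoplasmic reticulum stress genes 14 rose and 4 fell, with a median of 0.19. Asns, asparagine synthetase, was at 2.77, 3.04, 3.07, 2.88 and 4.14 CPM in the EF+PF libraries and 16.0, 12.2, 11.5 and 12.2 CPM after LPS. All LPS libraries were above all EF+PF libraries, at a change of 2.03 ± 0.31 (SE), adjusted p = 9.62e-06. The chaperone genes Hyou1, Creld2 and Hsp90b1 rose by 1.19 ± 0.19, 1.58 ± 0.27 and 0.83 ± 0.15. The stress regulators Ddit3 (0.10), Atf4 (-0.36) and Xbp1 (-0.11) did not pass. Of 22 tested heat shock genes 0 rose and 4 fell, the latter a share near the 17.3% of all genes. They were Hspb8 at -0.60 ± 0.13, Dnaja1 at -0.47 ± 0.12, Dnajb1 at -0.59 ± 0.16 and Bag3 at -0.62 ± 0.19.

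Of 45 tested cell cycle genes 18 rose and 2 fell, with a median of 0.74. Mcm3, a subunit of the replication helicase, was at 1.90, 2.07, 1.13, 1.12 and 1.18 CPM in the EF+PF libraries and 4.66, 6.82, 4.53 and 4.48 CPM after LPS. The level was low, without overlap, at a change of 1.79 ± 0.29 (SE), adjusted p = 2.33e-05. The subunits Mcm5 and Mcm6 rose by 1.86 ± 0.35 and 1.46 ± 0.28, and the kinase gene Cdk2 fell, at -0.53 ± 0.10. Pcna (0.03) and Ccnd1 (-0.29) did not pass. Of 20 tested eicosanoid genes 9 rose and 3 fell, with a median of 1.15. The summed level of the list was nevertheless lower after LPS, at 1429 to 1717 TPM against 2000 to 2119 TPM in EF+PF livers. Thromboxane synthase, Tbxas1, rose by 2.14 ± 0.33, the phospholipase gene Pla2g4a by 2.70 ± 0.44 and Lta4h, of leukotriene synthesis, by 0.79 ± 0.13. Of 20 tested clock genes 0 rose and 1 fell, Cry1 at -0.77 ± 0.29 (adjusted p = 0.0381), a call lost without any 1 of EF+PF replicates 1, 5 and 6 or LPS replicates 3 and 6 (adjusted p up to 0.127), and also with total-count scaling and without a filter on low counts. Of 6 tested adipose markers 3 fell, Pnpla3, Car3 (-1.82 ± 0.43) and Cidec (-0.76 ± 0.23), and each is also a liver gene. Adiponectin, Adipoq, the defining adipose marker, was at 0.0180 ± 0.0402 CPM (SD, n = 5) without and 0 ± 0 CPM (SD, n = 4) with LPS.

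The largest rises among called genes with an established symbol, at least 2 CPM and no overlap between groups included antimicrobial and mucosal genes. These were near 0 without LPS. Reg3b, an antimicrobial lectin (chr4:109467272-109470510), had 1 count in all EF+PF libraries together and 1096 after LPS, a ratio of the scaled levels of 969 (95% exact interval of counting error 174 to 38317). The 1 count was in EF+PF replicate 6, and the fitted change was 9.36 with and 10.85 without that library. Its close relative Reg3g had 0 and 290 counts, at least 85.5-fold higher against a floor of 3 counts over the group. Gucy2c, the intestinal receptor guanylate cyclase C, was at 0, 0.0440, 0, 0.0900 and 0 CPM in the EF+PF libraries and 24.0, 12.3, 11.7 and 28.0 CPM after LPS. It was read in only 2 EF+PF libraries and was above 10 CPM in all LPS libraries, a ratio of 666 (228 to 3234) and adjusted p = 1.25e-06. That ratio rests on 3 counts in EF+PF libraries, and the fitted change was 9.22, or 10.19 without EF+PF replicate 5. Saal1, serum amyloid A like 1, had 0 and 287 counts, at least 84.6-fold higher. Lcn2, the iron-trapping protein lipocalin 2, was at 1.57, 0.352, 0.189, 0.180 and 0.329 CPM in the EF+PF libraries and 36.4, 30.4, 34.5 and 1085 CPM after LPS. LPS replicate 6 was far above the other LPS libraries, and the change was 9.09 ± 2.01 with it, 5.95 without it and 10.11 without EF+PF replicate 1. Mmp3, the metalloprotease stromelysin, had 3 and 422 counts, a ratio of 124 (42.3 to 606), and its fitted change was 6.85, or 6.04 without LPS replicate 1. The others were A2m and Siglec10, given above, Scube1 (5.38 ± 1.14), Fcrl2 (5.20 ± 0.93), Trem1, an amplifier of myeloid activation (5.001 ± 0.79), and Ebi3, a subunit of interleukin-27 (4.97 ± 0.54).

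The largest falls by the same rule included Cyp2c11, given above, and 10 more genes. Obp3, a lipocalin of male rat liver, was at 28.4, 3.70, 3.07, 2.07 and 3.76 CPM in the EF+PF libraries and 0.362, 0.339, 0.372 and 0.142 CPM after LPS. EF+PF replicate 1 stood far above the other EF+PF libraries, and the change was -4.72 ± 1.06 (SE), adjusted p = 0.000747, and -3.35 without that replicate. Inmt, an N-methyltransferase, was at 88.5, 21.7, 13.9, 19.8 and 10.4 CPM in the EF+PF libraries and 0.804, 1.12, 4.15 and 1.85 CPM after LPS. Replicate 1 was again the highest EF+PF library, and the change was -3.94 ± 0.74 (SE), adjusted p = 0.00011, -3.03 without it and -4.62 without LPS replicate 4. Tsku, a secreted liver protein, was at 458, 502, 445, 779 and 841 CPM in the EF+PF libraries and 15.7, 28.7, 63.9 and 86.7 CPM after LPS. It varied in both groups without overlap, at a change of -3.63 ± 0.96 (SE), adjusted p = 0.00356. Pnpla3, a lipase of lipid droplets, fell, at -3.54 ± 0.82, and at -2.88 without EF+PF replicate 1. Others were in Zfp354a (-3.47 ± 0.87), Stac3 (-3.32 ± 0.74) and, at low levels, in Mmd2 (-3.87 ± 0.83), Nxpe5 (-3.78 ± 0.70), Tenm2 (-3.69 ± 0.77) and Lhx8 (-3.23 ± 0.75).

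The LPS response of EF+PF rats shared most of its genes with that of rats without extract. The 4 arms have no library in common. LPS called 5435 genes without extract, 4310 with EF and 3470 with EF and RD, against 5402 with EF+PF. Summed acute-phase levels varied within the other arms. Without LPS, EF replicates 1 and 5 were at 139786 and 124398 TPM, against 75557 to 93018 TPM in the other EF libraries. EF_RD replicate 1 was at 137197 TPM, against 80871 to 93963 TPM. LPS_EF replicate 7 was at 96436 and LPS_EF_RD replicate 6 at 111465 TPM, against at least 150476 TPM elsewhere in their groups. In the arm without extract, LPS replicate 1 was at 235404 TPM, against 140924 to 163736 TPM in the other LPS libraries. What these libraries add to the calls per arm was not tested. Of the EF+PF calls, 2085 higher and 1765 lower genes were also called in the same direction without extract, which is 71.3% of the EF+PF calls and 70.8% of those without extract, and 3 were called in opposite directions. With EF the shared calls were 57.6% of the EF+PF calls and 72.3% of the EF calls, and with EF and RD 45.8% and 71.3%. In all 4 arms 1794 genes were called in the same direction. A further 975 genes were called in the EF+PF arm and in no other, which is not a test of a difference between arms.

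The test of the difference itself called few genes. Against rats without extract 12 of 14786 genes (0.0812%) differed in their LPS response, all lower in the EF+PF arm, and 719 had an unadjusted p under 0.05. Chance alone gives such an unadjusted p for about 1 in 20 of all genes tested. Against EF rats edgeR called 0 (0%), with 1154 at an unadjusted p under 0.05 and 7 called by DESeq2, another count model. With 1 library left out, the 1154 ran from 857 without EF replicate 1 to 1578 without EF replicate 5. It was 901 without LPS_EF replicate 7, and 0 genes were called each time. Against EF+RD rats 1 gene was called (0.00676%), with 1529 at an unadjusted p under 0.05 and 30 called by DESeq2. That gene was Tkt, transketolase, which was at 223, 156, 222, 204 and 187 CPM in the EF+PF libraries and 118, 123, 122 and 109.9 CPM after LPS. It changed by -0.75 ± 0.12 here and 0.25 ± 0.12 in the EF+RD arm, a difference of -0.9996 ± 0.17 (adjusted p = 0.0287). The call for Tkt was lost without any 1 of EF_PF replicates 1, 3 and 5, EF_RD replicate 1, LPS_EF_PF replicates 1, 4 and 6, or LPS_EF_RD replicates 2, 4 and 6, where 0 genes were called, and 10 genes were called without EF_RD replicate 3.

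Outside the EF+PF arm 3 libraries held far more RNA of skeletal muscle or exocrine pancreas markers. EF_RD replicate 1 was at 6381 TPM of the muscle and 214 TPM of the pancreas markers, LPS replicate 3 at 683 and 3535 TPM, and control replicate 5 at 5396 TPM of the pancreas markers. With all 3 left out, an alternative chosen after seeing the data, 26 genes differed from the arm without extract, 25 of them lower in the EF+PF arm and the 12 among them. Then 0 genes differed from the EF+RD arm, with 991 at an unadjusted p under 0.05, and Tkt was at an adjusted p of 0.11. The LPS response with EF+PF then gave 5813 calls. Without control replicate 5 alone 9 genes differed from the arm without extract, and without LPS replicate 3 alone 25. Without EF_RD replicate 1 alone 999 genes had an unadjusted p under 0.05 in the difference from the EF+RD arm.

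**Figure D4:**
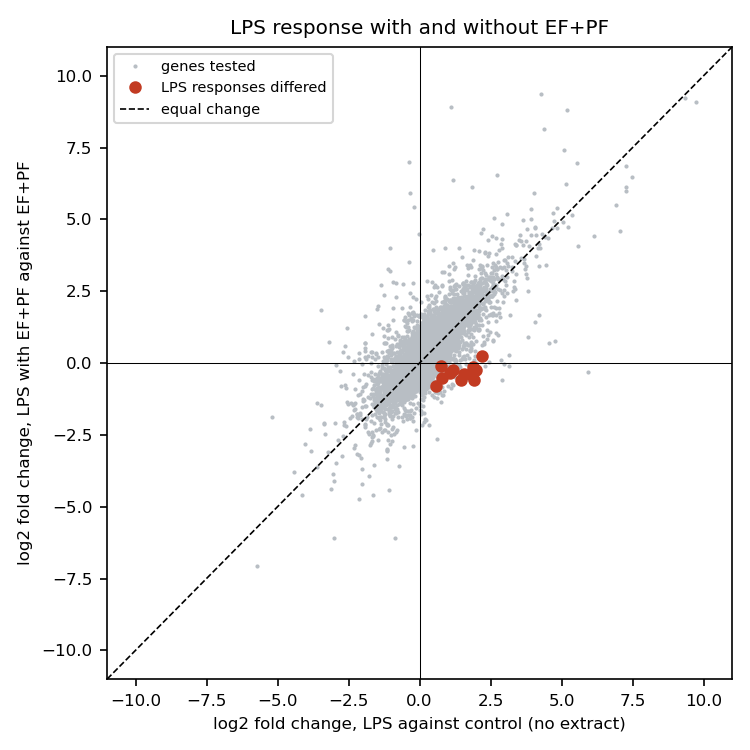
Log2 fold change after LPS of all 14786 genes tested, without extract (x axis) and with EF+PF (y axis), as grey points, with the 12 genes whose LPS responses differed in red and a dashed line of equal change. The 12 genes lie to the right of 0 on the x axis and near or below 0 on the y axis.

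The genes that differed from the arm without extract belong to sterol synthesis or lie beside its genes. Cholesterol is made from acetyl-CoA through mevalonate and squalene, under the control of the transcription factor SREBP-2, which Srebf2 encodes. Of 26 tested genes of the pathway 6 fell and 0 rose after LPS in EF+PF rats, against 17.3% and 19.2% of all genes, with a median of -0.37. The same median was 1.01 without extract, -0.31 with EF and 0.40 with EF and RD. The difference from the arm without extract was called, as lower, for 9 of the 26. Msmo1, a demethylase of the late pathway, was at 398, 411, 351, 343 and 248 CPM in the EF+PF libraries and 338, 271, 376 and 197 CPM after LPS. It was at 145, 88.4, 157, 126 and 126 CPM in control libraries and 686, 489, 272, 587 and 487 CPM in LPS libraries without extract. The EF+PF groups overlapped and both lay above the control libraries, while without extract all 5 LPS libraries were above all controls. The change after LPS was 1.97 ± 0.30 without extract and -0.25 ± 0.31 here, a difference of -2.22 ± 0.43 (adjusted p = 0.0257). Levels of EF+PF against control without LPS were not tested here.

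Sqle, the squalene epoxidase, changed by 1.88 ± 0.28 without extract and -0.14 ± 0.28 here, a difference of -2.02 ± 0.40. Mvd, which decarboxylates mevalonate diphosphate, changed by 1.85 ± 0.29 and -0.42 ± 0.30, a difference of -2.26 ± 0.42. Acat2, an acetyl-CoA acetyltransferase (chr1:47972399-47992654), differed by -2.48 ± 0.46. Its neighbour Acat2l1 (chr1:48008574-48025730) is a close copy, so reads between the copies are uncertain. Mmab, of vitamin B12 metabolism, differed by -1.42 ± 0.27, and it shares its promoter with the mevalonate kinase gene Mvk. Further genes, named because the count is small, were Pmvk (-1.39 ± 0.27), Hmgcs1 (-1.95 ± 0.38), Acat2l1 (-2.03 ± 0.40), Mvk (-1.42 ± 0.28), Srebf2 (-0.86 ± 0.18) and LOC102550763 (-1.98 ± 0.40), which lies beside Sqle on the opposite strand. Adjusted p-values of the 12 ran from 0.0257 to 0.0379. No gene was called without any 1 of control replicates 4 and 6, LPS replicates 1 and 4, EF_PF replicate 1 or LPS_EF_PF replicates 1, 3 and 6.

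Within the EF+PF arm the sterol genes that fell included Insig1, which retains SREBP-2 in the endoplasmic reticulum (-1.65 ± 0.31, adjusted p = 0.000134), Nsdhl (-0.76 ± 0.16, adjusted p = 0.000462), Pmvk (-0.79 ± 0.20, adjusted p = 0.0022) and Ebp (-0.63 ± 0.16, adjusted p = 0.00281). The signs of Sqle and Srebf2, which did not pass, turned positive with total-count scaling.

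**Figure D5:**
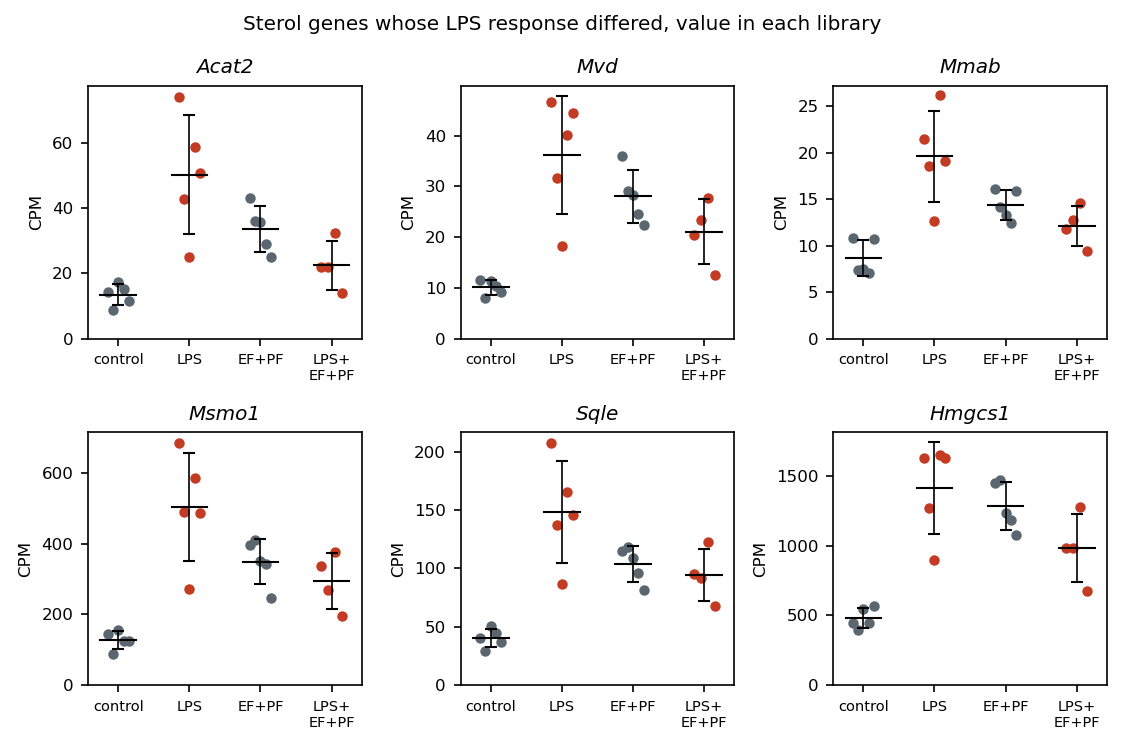
CPM in each library of 6 of the genes whose LPS response differed, in control and LPS libraries without extract and in the EF+PF and LPS with EF+PF libraries. Horizontal lines are means and error bars SD (n = 5, 5, 5 and 4). LPS libraries without extract lie above the controls, while the EF+PF groups overlap for each of the 6 genes.

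Promoters of sterol genes are shown because 9 of the 26 tested genes of the list differed in their LPS response from the arm without extract. A promoter was matched for 18 of the 26 genes of the list. CCAAT, the letters of an NF-Y site, searched on both strands, were found in 15 of the 18 (83.3%), against 34.0% of all promoters. They were also found in 6 of the 8 matched promoters of the 12 genes that differed, where 1 stretch of sequence is counted for both Mmab and Mvk. TCACNCCAC, the letters of a sterol regulatory element, were in 0 of the 18 and 0.974% of all promoters, which says only that these letters are not in this window. The promoter of Mmab holds 5 matches and shares 247 of its 250 bases with that of Mvk, which is read from the other strand. Capitals mark CCAAT or its reverse complement ATTGG, which do not overlap each other here.
Mmab, chr12:47819507-47819756, plus strand: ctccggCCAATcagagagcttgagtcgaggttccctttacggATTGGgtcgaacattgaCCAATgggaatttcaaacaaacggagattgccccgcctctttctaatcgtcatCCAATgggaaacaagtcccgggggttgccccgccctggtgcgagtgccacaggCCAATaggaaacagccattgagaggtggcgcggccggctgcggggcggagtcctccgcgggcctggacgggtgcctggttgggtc
Msmo1, chr16:29746863-29747112, plus strand: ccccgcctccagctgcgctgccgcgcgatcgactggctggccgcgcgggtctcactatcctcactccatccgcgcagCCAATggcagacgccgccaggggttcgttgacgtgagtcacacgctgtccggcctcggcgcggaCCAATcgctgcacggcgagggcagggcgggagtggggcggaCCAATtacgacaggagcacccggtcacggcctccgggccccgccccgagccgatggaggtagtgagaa
Hmgcs1, chr2:53382054-53382303, plus strand: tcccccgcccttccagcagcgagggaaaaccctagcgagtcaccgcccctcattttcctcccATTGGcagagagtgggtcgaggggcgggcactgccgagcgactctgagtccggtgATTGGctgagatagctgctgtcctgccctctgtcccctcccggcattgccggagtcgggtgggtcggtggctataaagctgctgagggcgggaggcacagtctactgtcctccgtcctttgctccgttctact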

How the data were processed

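RNA of 9 livers in this arm, and of 29 more that share the fit, was measured by RNA sequencing. Count values were made by the authors with featureCounts 2.0.6, per the file headers, as read pairs per gene name on a RefSeq annotation of rn6, with no strand setting, so a gene and an overlapping antisense gene cannot be told apart. STAR, RSEM and the build mRatBN7.2 are named in the submitters' processing notes. Positions are those of the count table and are given as rn6. The deposited TPM values equalled length-scaled counts within 0.0495% and were used only for summed list levels. Column names gave the sample of each column.

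Genes were kept by filterByExpr (minimum count 10, minimum total 15), scaled by TMM and tested on the deposited counts with edgeR 4.0.16 in R 4.3.3 (glmQLFit and glmQLFTest, 1 mean per group over all 38 libraries). P-values are two-sided, adjusted by Benjamini-Hochberg over 14786 genes and called at an adjusted p under 0.05. They rest on the spread between libraries within groups, estimated over all 38 libraries. The SE is the absolute log2 fold change over the square root of F. The fit was also run on simulated data, and the outcome is not reported here. CPM are TMM-scaled, and the log2 CPM of the principal components used a prior count of 2. Total counts per library of the EF+PF arm were 22287849 to 35835012. Read pairs are not independent molecules, so counting intervals cover counting error only.

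Alternatives were relative log expression and total-count scaling, no filter, only the groups compared, DESeq2 1.42.0, a replicate block, leaving out each library, and, added after seeing the data, leaving out 3 libraries of other arms whose muscle or pancreas markers exceeded 100 TPM. The comparison, the 42 gene lists and the rules were chosen with earlier results of these data known. Named genes are the 12 largest rises and falls (called, at least 2 CPM, no overlap). Genes with a provisional symbol, such as one starting with LOC or RGD, were left out of that ranking. Also named are up to 4 called members per list with the smallest p and uncalled members of a described list. For each difference, up to 6 genes per direction are named. Others are said to be chosen after their values were seen. No test of a list was made. Results of some genes are not reported here.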

Additional observations from a re-analysis of the deposited data

Results flagged for a closer look

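In 27 of 468 combinations of a named gene and a group, 1 library lay far from the others of its group by Dixon's criterion, where chance alone gives about 1 in 20. EF+PF replicate 1 stood apart with Cxcl2 at 0.0413 CPM against 0 in each other library, Gstm2 at 1327 CPM against 973 to 1063, Inmt at 88.5 CPM against 10.4 to 21.7 and Lcn2 at 1.57 CPM against 0.180 to 0.352. EF+PF replicate 1 also stood apart with Nxpe5 at 3.88 CPM against 1.69 to 2.02, Obp3 at 28.4 CPM against 2.07 to 3.76 and Slc10a1 at 823 CPM against 700.0 to 736. EF+PF replicate 2 stood apart with Serpina1 at 13406 CPM against 14712 to 15104. EF+PF replicate 3 stood apart with Dnajb1 at 51.8 CPM against 27.0 to 30.8. EF+PF replicate 5 stood apart with Abcc3 at 4.05 CPM against 2.12 to 2.64, Adipoq at 0.0900 CPM against 0 in each other library, Ptpn6 at 24.9 CPM against 28.9 to 29.7 and Serpind1 at 1102 CPM against 895 to 928. EF+PF replicate 6 stood apart with Asns at 4.14 CPM against 2.77 to 3.07, Reg3b at 0.0471 CPM against 0 in each other library and Slc39a10 at 2.92 CPM against 3.82 to 4.14. LPS replicate 1 stood apart with Asns at 16.0 CPM against 11.5 to 12.2, Cyp2c11 at 294 CPM against 120.0 to 132 and Mmp3 at 8.45 CPM against 1.40 to 2.60. LPS replicate 3 stood apart with Mcm3 at 6.82 CPM against 4.48 to 4.66, Plaur at 3.08 CPM against 2.35 to 2.44 and Scd at 275 CPM against 29.5 to 68.0. LPS replicate 4 stood apart with Adam17 at 33.0 CPM against 35.4 to 35.6 and Glul at 514 CPM against 413 to 421. LPS replicate 6 stood apart with Lcn2 at 1085 CPM against 30.4 to 36.4, Obp3 at 0.142 CPM against 0.339 to 0.372 and Uqcrc2 at 111 CPM against 121 to 122. The causes were not tested.

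The LPS response differed between arms by the test of the difference for 13 genes. Among those lower in the EF+PF arm than without extract, in log2 units, were Acat2 at -2.48, Mvd at -2.26, Mmab at -1.42, Msmo1 at -2.22, Sqle at -2.02, Pmvk at -1.39, Hmgcs1 at -1.95, Acat2l1 at -2.03, Mvk at -1.42, LOC102550763 at -1.98 and Srebf2 at -0.86. Lower than in the EF+RD arm was Tkt at -0.9996. These calls depend on single libraries, as given with the results above.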

How the results depend on the processing

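The number of genes called in the LPS response with EF+PF, 5402, stayed within 1.5 times under each of the 16 alternatives, from 4571 to 5034 when 1 library was left out, and was 5301 with relative log expression scaling, 5125 with total-count scaling, 4935 without a filter, 6291 with only the groups compared, 5585 with DESeq2 and 5813 without the 3 libraries high in muscle or pancreas markers. Of the 5402 calls, 3942 were also called with total-count scaling, where 1103 genes were lower against 2563. Of the 174 called genes named in the text, 162 were called under every alternative that tested them and 12 lost their call under at least 1. Because many named genes were chosen by a small p or a large change, this count does not describe all calls. Of the 60 named genes not called, 13 were called under at least 1 alternative, and no call changed direction. The count of genes that differed from the arm without extract, 12, was 27 with only the groups compared, 31 with DESeq2 and 26 without those 3 libraries, each time with the same 12 among them, and 0 to 25 when 1 library was left out. It was 5 without EF_PF replicate 2, 25 without LPS replicate 3 and 19 without LPS_EF_PF replicate 4. Against the EF arm, 0 became 7 with DESeq2 and stayed 0 in each of the 19 omissions. Against the EF+RD arm, 1 became 30 with DESeq2, 0 without those 3 libraries and 0 to 10 when 1 library was left out, and with total-count scaling the 1 gene called was higher and was not Tkt. The cause was not tested.

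Replicate numbers 1, 3 and 6 occur in both groups. Residuals of same-numbered libraries correlated at r = 0.038, 0.013 and 0.060, and 1 of the 3 LPS libraries correlated best with its own number, so the numbers were not taken to pair the samples. In the other 3 arms r was -0.25 to 0.021, and 0 of 9 correlated best with their own number. With a replicate block, which also ended the calls for Epcam, Nr1h3 and Stab1, 5585 genes were called in the LPS response, 0 in the difference from the arm without extract, 0 from the EF arm and 2 from the EF+RD arm. Depth limits the size of changes from near 0, such as those of Reg3b and Gucy2c, which rest on few counts in the EF+PF libraries.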
